A study of Glycine max with 6 samples.

Results

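In the seed coats of 6 soybean plants, 8 of 37593 soybean probe sets (0.0213%) had lower signals in black plants 1 and 2 and brown plant 2 than in black plant 3 and brown plants 1 and 3. A probe set is a group of short probes on the array that together measure 1 transcript or, in some cases, several similar ones. The 8 were chosen on the signals themselves: the highest signal of the former 3 plants, called the lower plants here, had to lie below the lowest of the latter 3, the upper plants, and the means had to differ by at least 1.0 on the log2 scale. The difference between the lower and upper plants is therefore a description, and it was not tested. Their working name is transcripts falling with seed maturation. The rule was chosen with earlier results of these data known, so the maturation transcripts are no independent check of that name. The 8 followed the level of those transcripts only in part, as shown with them, so they are called by the rule.

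RNA came from 3 plants of the black (iRT) and 3 of the nearly isogenic brown (irT) line of variety Clark. Both carry i and T, and they differ in the allele of the R locus, R in black and r in brown, which governs whether the coat makes anthocyanins. No plant was treated. All coats were taken at the transition stage, from seeds of 300 to 400 mg fresh weight, and by the design text the stage was matched between the lines on pod, embryo and marker transcript traits. The sources used here assign no single plant to an earlier or later point of that stage. Each plant was measured on 1 Soybean GeneChip, and all values are log2 signals made by RMA, which adjusts for background and normalizes across arrays.

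The soybean seed coat is maternal tissue that surrounds and feeds the embryo. In a maturing seed the embryo stores protein and oil, and late embryogenesis abundant (LEA) and other maturation proteins accumulate before it dries. Purine synthesis, to which 1 of the 8 belongs, supplies the nucleotides for DNA, RNA and cofactors.

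Measured differences were small in all 8 probe sets, from 1.02 to 1.28 on the log2 scale (median 1.07), or 2.03-fold to 2.42-fold. In 3 of the 8, the 2 with the largest measured differences among them, some signals of the lower plants were not above background, so the size of the difference is not known exactly there. The array annotation pairs 5 of the 8 with a gene, and these genes lie on 5 chromosomes of the Glycine max v4.0 assembly. All 5 are annotated as protein-coding, and PUR3 is the only one with a descriptive symbol. The tables used here give no function for the genes with LOC symbols, and 3 of the 8 probe sets have no symbol.

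PUR3 encodes the glycinamide ribonucleotide transformylase of purine synthesis and lies on chromosome 19 (37604140 to 37606497). Black plants 1, 2 and 3 gave signals of 3.82, 3.92 and 5.19, and brown plants 1, 2 and 3 gave 5.52, 4.90 and 5.11. Black plants 1 and 2 stood apart from the other 4, and brown plant 2 was 0.20 below the lowest upper plant. The means of the upper and lower plants differed by 1.05.

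LOC547562, with the synonym KNBS1, lies on chromosome 16 (29562418 to 29569968). Black plants 1, 2 and 3 gave 4.54, 3.79 and 5.05, and brown plants 1, 2 and 3 gave 5.12, 4.14 and 5.52. This was the only one of the 8 in which brown plant 2 lay between black plants 1 and 2. It was also the only one in which the widest gap between neighbouring plants, 0.51, fell between the lower and the upper plants. The difference of the means was 1.08.

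LOC100305604 (chromosome 14, 2164420 to 2171471) had the largest measured difference of the 8, 1.28. Its signals were 2.85, 3.82 and 5.01 for black plants 1, 2 and 3, and 4.88, 4.55 and 5.16 for brown plants 1, 2 and 3. Black plant 1, the lowest by 0.97, was not above background.

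LOC100500025 (chromosome 10, 3917214 to 3919114) gave 3.11, 3.52 and 4.70 for black plants 1, 2 and 3, and 4.64, 4.33 and 4.84 for brown plants 1, 2 and 3. LOC100776662 (chromosome 2, 271510 to 273419) gave 8.50, 8.79 and 10.02 for black plants 1, 2 and 3, and 10.04, 9.86 and 10.14 for brown plants 1, 2 and 3. In both, black plants 1 and 2 were low while brown plant 2 was close to the upper plants. The differences of the means were 1.07 and 1.02.

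Of the probe sets without a symbol, the one with the largest difference (1.21) gave 3.16, 3.09 and 4.92 for black plants 1, 2 and 3, and 4.72, 4.21 and 4.44 for brown plants 1, 2 and 3. The second (difference 1.10) gave 4.94, 5.07 and 6.40 for black plants 1, 2 and 3, and 6.51, 6.21 and 6.61 for brown plants 1, 2 and 3. The last (difference 1.04) gave 7.22, 6.59 and 8.19 for black plants 1, 2 and 3, and 8.37, 7.80 and 8.15 for brown plants 1, 2 and 3. Black plants 1 and 2 were the lowest in each of these, and brown plant 2 followed. Their names stand above the panels of the plot of signals by plant.

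**Figure D1:**
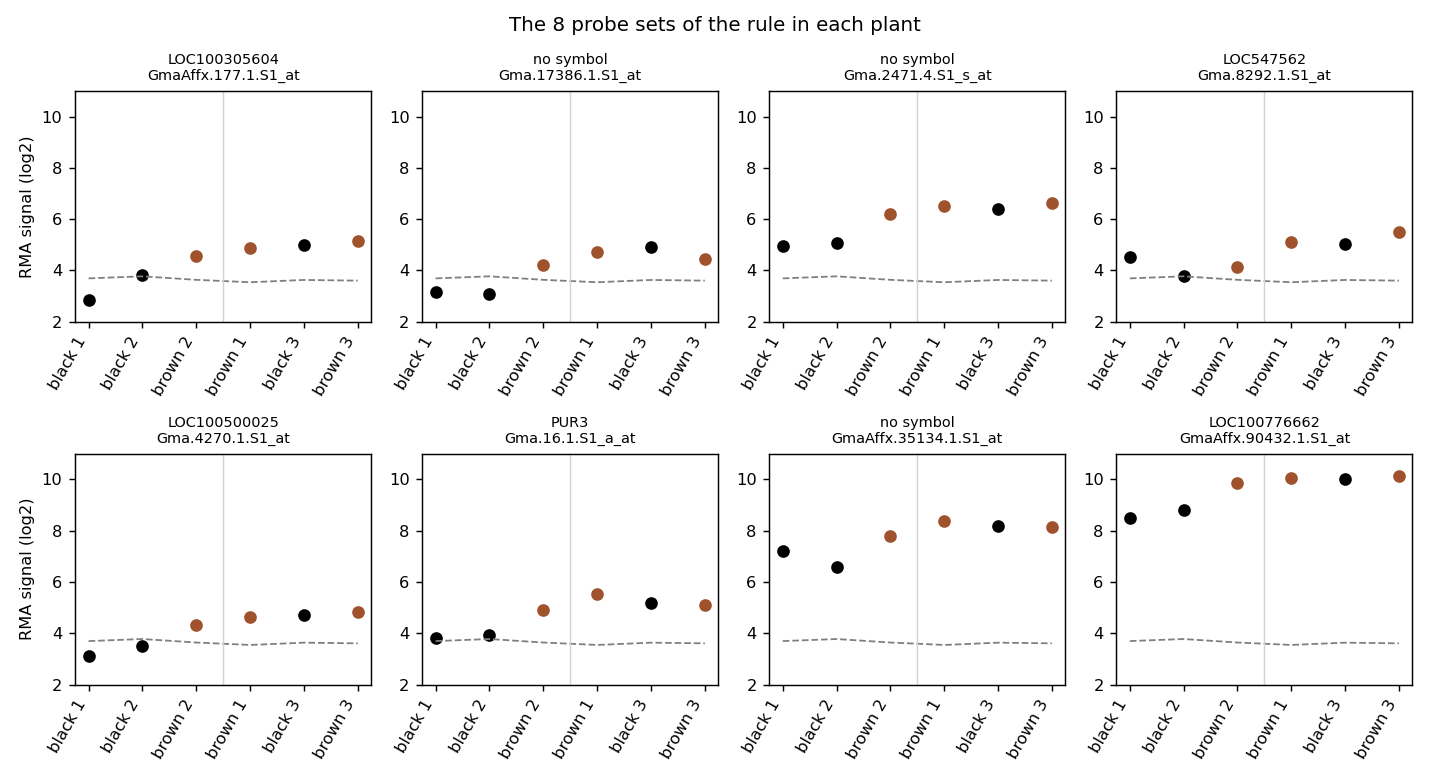
Each panel shows 1 probe set, with the RMA signal (vertical axis, log2) in each of the 6 plants, which run from left to right by decreasing level of the maturation transcripts. Black and brown points are black (iRT) and brown (irT) plants, the dashed line is the background level of each array and the vertical line parts lower from upper plants; in 7 of the 8 panels brown plant 2 lies nearer to the mean of the upper plants than to that of black plants 1 and 2.

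The background level of an array was taken as the 95th percentile of its 23350 probe sets for the pathogens Phytophthora sojae and Heterodera glycines, and it was 3.54 to 3.77. On all 6 arrays 5 of the 8 probe sets lay above it. LOC100305604 was not above background in black plant 1, and LOC100500025 and the first of the probe sets without a symbol were not above it in black plants 1 and 2. At those points the level is known only to be within background.

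How the plants were ordered within the lower and within the upper 3 was not set by the rule. Brown plant 2 was the highest of the lower plants in 7 of the 8. In these 7 it lay 0.90 to 1.22 above the mean of black plants 1 and 2 and 0.21 to 0.49 below that of the upper plants. With no limit on the difference, 3990 probe sets (10.6% of the soybean probe sets) had the order of the rule. Among these 3990, brown plant 2 was the highest of the lower plants in 49.3% and nearer to the upper plants in 30.3%. The widest gap lay after the 2 lowest plants in 5 of the 8, where these were black plants 1 and 2, and in 23.7% of the 3990, where they could be any 2 of the lower plants.

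Black plant 1 had the lowest signal in 5 of the 8 and black plant 2 in 3. In 2 of the 8, LOC100500025 and the first of the probe sets without a symbol, neither plant was above background, so which of them was lower is not determined. Brown plant 3 was the highest in 5, brown plant 1 in 2 and black plant 3 in 1. In the 3990, black plant 1 was the lowest in 27.7% and brown plant 3 the highest in 37.7%; over all soybean probe sets these shares were 20.7% and 15.4%. The upper plants differed little from each other, with an SD of 0.06 to 0.25 over the 8, while the SD of the lower plants was 0.38 to 0.86. The latter includes the distance of brown plant 2 from black plants 1 and 2 and, in 3 of the 8, signals not above background. No SD of the 3990 is set beside these, so they are not shown to be particular to the 8.

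The level of maturation transcripts in each plant was averaged over 36 probe sets of PM and LEA genes, each taken relative to its own mean. Black plants 1, 2 and 3 stood at 1.90, 0.75 and -0.92, and brown plants 1, 2 and 3 at -0.67, 0.32 and -1.38. The lower plants of the rule were the 3 with the highest level of maturation transcripts. The rule was chosen with earlier results of these data known, so this match does not check its working name. Brown plant 2 was nearer to black plant 2 than to any upper plant by this measure, whereas by 7 of the 8 probe sets it was nearer to the upper plants. In bulk tissue, fewer cells of a type and less RNA per cell cannot be told apart.

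None of the 8 belonged to the maturation list, to 19 probe sets of embryo storage proteins or to 7 of seed coat proteins. These lists were formed from symbols, so the members without a descriptive symbol could not be in them. With the order turned and a difference of at least 1.0, 21 of the 36 maturation, 3 of the 19 storage and 2 of the 7 seed coat probe sets were higher in the lower plants. The maturation count is likewise no independent check of the working name. The 2 seed coat probe sets were those of PRP2, a proline-rich protein, of which 1 gave 14.35, 13.87 and 10.44 for black plants 1, 2 and 3, and 12.40, 13.69 and 7.60 for brown plants 1, 2 and 3. Some embryo transcripts were high in black plant 1 alone, named after their values were seen. There, a probe set of KTI3, a trypsin inhibitor, was at 11.77 beside 8.04 to 8.72 in the other plants. LEA5 was at 9.72 beside 5.46 to 5.67, and GY1, a glycinin, at 11.41 beside 9.52 to 10.35. Others of the storage list were not highest in black plant 1. A probe set of CG-BETA-1 was lowest there, at 6.14 beside 6.22 to 7.71. KTI1 was at 7.53 there and at 7.77 in black plant 3, and GY5 at 9.20 there and at 9.40 in brown plant 1. Without black plant 1 the rule was met by 17 probe sets, 3 of the 8 among them. The seed coat markers Ep, a peroxidase (10.91 to 11.41), SCB1, a BURP domain protein (11.25 to 12.55), and HPS, the hydrophobic seed protein (13.76 to 14.16), were far above background in every plant. ANR1, an anthocyanidin reductase gene of proanthocyanidin synthesis, was at 3.50 to 3.80, near background. The part of the maturation and storage transcripts in the 8 differences was not tested.

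The turned rule, with the lower plants of the 8 now higher by at least 1.0, was met by 275 soybean probe sets (0.732%). Without a limit on the difference, the order of the rule was kept by more probe sets than the turned order, 3990 against 2234. The median difference was similar, 0.26 and 0.27, but the largest were 1.28 and 5.70. From 0.5 to 0.75 there were 303 probe sets with the order of the rule and 145 with the turned order, and from 0.75 to 1.0 there were 33 and 50. The 8 are thus the upper end of many small differences. With the order turned, brown plant 2 was nearer to the 3 plants of low maturation level in 39.3% of the 275, and the widest gap fell between the sets of 3 in 39.6%, beside 1 of the 8. In 90.9% of the 275, brown plant 2 was the lowest of the 3 higher plants. Black plant 1 was the highest of all in 94.5% and brown plant 3 the lowest in 73.5%. The places of these plants at the ends and of brown plant 2 in the middle were thus not particular to the 8. All these probe sets were chosen on the same signals, so the shares were not tested.

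**Figure D2:**
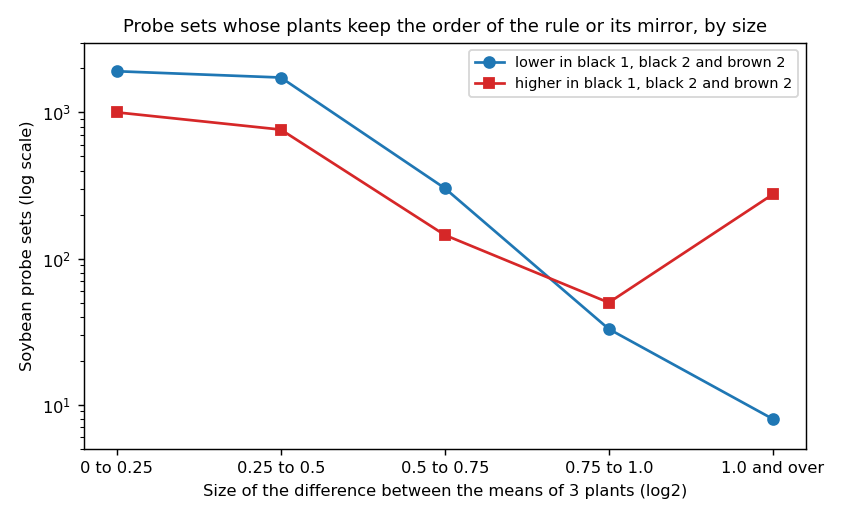
The number of soybean probe sets (vertical axis, log scale) is plotted by the size of the difference between the means of the 3 lower and 3 upper plants (horizontal axis, log2, in 5 classes, the last with no upper limit), for probe sets with the order of the rule (blue circles) or the turned order (red squares). Those with the order of the rule are more numerous up to a difference of 0.75, and at 1.0 and over there are 8 and 275.

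Just inside the limit were LOC100776662 at 1.02, the last of the probe sets without a symbol at 1.04 and PUR3 at 1.05. The 3 just outside, at 0.99, 0.98 and 0.96, have no symbol. The first of them gave 5.49 and 5.51 in black plants 1 and 2 and 6.71 to 7.03 in the other 4 plants and had brown plant 2 close to the upper plants. In the second, brown plant 2 lay midway, 0.59 above the mean of black plants 1 and 2 and 0.58 below that of the upper plants. In the third it was nearer to the former, by 0.27 against 0.78.

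Between 0.6 and 1.0 the order of the rule was kept by 144 probe sets, of which 8 carry 1 descriptive symbol. These were PRP1, a proline-rich cell wall protein (0.93), GY2, a glycinin storage protein (0.76), DHBK in 2 probe sets (0.73 and 0.60), CDPK, a calcium-dependent protein kinase (0.64), AS2 (0.63), ACSL2 (0.61) and SUT1, a sucrose transporter (0.60). They were named after their values were seen. ACSL2 was not above background on any array, and the DHBK probe set at 0.73 was above it on only 2 and in no lower plant. The sizes of these differences are therefore not known exactly. GY2 gave 7.13, 6.52 and 7.51 for black plants 1, 2 and 3, and 7.65, 6.53 and 7.29 for brown plants 1, 2 and 3, and its other probe set did not keep the order. The glycinin gene GY7 had the turned order, with 9.24, 8.50 and 4.33 for black plants 1, 2 and 3, and 5.50, 7.54 and 3.26 for brown plants 1, 2 and 3.

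Further probe sets existed for 6 of the 8, a comparison made after the values were seen. There were 10 for the 5 genes, of which 2 kept the order of plants. For PUR3, a probe set with the same number ending in _s_at gave 8.11, 8.07 and 8.10 for black plants 1, 2 and 3, and 8.17, 8.10 and 8.13 for brown plants 1, 2 and 3, a range of 0.10 over all 6. Another gave 3.56, 3.52 and 3.93 for black plants 1, 2 and 3, and 4.37, 3.83 and 4.10 for brown plants 1, 2 and 3, and kept the order with a measured difference of 0.50, but black plants 1 and 2 were not above background there. Apart from the probe set chosen by the rule, PUR3 thus had 1 probe set with the order of the rule and 1 that was flat.

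LOC100305604 gave 9.63, 9.96 and 9.73 for black plants 1, 2 and 3, and 9.75, 9.73 and 9.86 for brown plants 1, 2 and 3 by its _s_at probe set, where black plant 2 was the highest. LOC100776662 gave 12.30, 12.43 and 12.28 for black plants 1, 2 and 3, and 12.42, 12.33 and 12.39 for brown plants 1, 2 and 3 by its _s_at probe set. In both the upper and lower plants differed by 0.01 on average. LOC100500025 gave 11.01, 10.78 and 11.22 for black plants 1, 2 and 3, and 11.22, 11.24 and 11.27 for brown plants 1, 2 and 3 by its _s_at probe set. Here black plants 1 and 2 were again the lowest, but brown plant 2 lay among the upper plants and the difference was 0.23.

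A probe set ending in _s_at holds probes shared by several similar transcripts, and one ending in _a_at recognizes several transcripts of 1 gene. Levels of different probe sets are not comparable on this array, so only their differences between plants are set side by side. Where the probes lie along each transcript was not examined here.

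**Figure D3:**
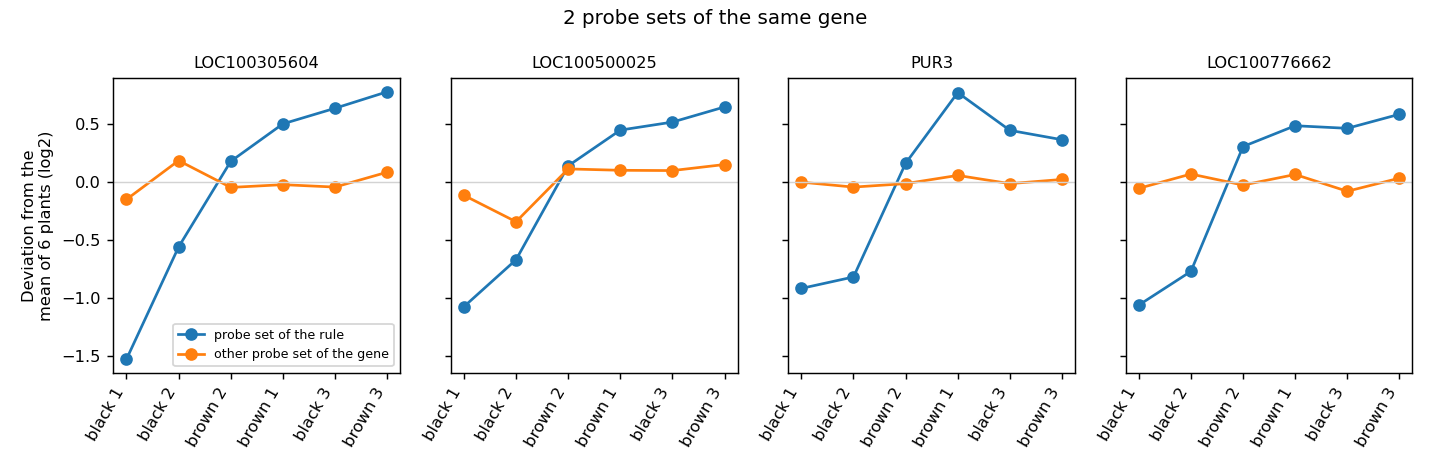
For 4 genes, the deviation of the RMA signal from the mean of the 6 plants (vertical axis, log2) is shown by plant (horizontal axis, by decreasing level of the maturation transcripts), in blue for the probe set chosen by the rule and in orange for the _s_at probe set with the same number. The blue lines span 1.65 to 2.31 between their lowest and highest plant, and the orange lines 0.10 to 0.49.

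LOC547562 had 5 further probe sets, of which 3 were not above background on any array. Of the others, 1 kept the order, with 4.16, 4.19 and 4.67 for black plants 1, 2 and 3, and 4.79, 4.50 and 5.01 for brown plants 1, 2 and 3 (difference 0.54). The other gave 6.29, 5.48 and 6.43 for black plants 1, 2 and 3, and 6.75, 6.44 and 6.75 for brown plants 1, 2 and 3 (difference 0.57), where brown plant 2 was just above black plant 3. Apart from the probe set chosen by the rule, both of those above background were thus lower on average in the lower plants, and 1 of them kept the order. The second of the probe sets without a symbol shared its number with 2 others, which differed by 0.10, with the order kept, and by -0.04.

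PUR1, the amidotransferase of the first committed step of purine synthesis, and PURD, the enzyme just before PUR3 in the pathway, were compared after the values of PUR3 were seen. PUR1 gave 5.58, 5.51 and 5.35 for black plants 1, 2 and 3, and 5.34, 5.24 and 5.53 for brown plants 1, 2 and 3. PURD gave 8.20, 8.28 and 8.05 for black plants 1, 2 and 3, and 8.23, 8.09 and 8.35 for brown plants 1, 2 and 3. Neither kept the order of plants, and the upper and lower plants differed by -0.04 and 0.03.

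Other gene groups of the seed coat were formed from descriptive symbols, which 1676 soybean probe sets carry. None of their 591 probe sets was among the 8. Of the 8, only PUR3 has a descriptive symbol, and no group covers purine synthesis, so this count could not have come out otherwise. The order of the rule without a limit was kept by 1 of 16 probe sets for photosynthesis, 1 of 12 for the cell wall, 2 of 6 for cell division and the cytoskeleton, 3 of 45 for sugar and nutrient transport and 1 of 63 for phenylpropanoids and flavonoids. It was kept by 3 of 30 for lipoxygenases and vegetative storage, 3 of 20 for kinases and receptors and 23 of 337 (6.82%) for transcription factors. It was kept by 0 of 36 for hormones, 0 of 14 for proteases and their inhibitors and 0 of 12 for defence. The share over all soybean probe sets was 10.6%.

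Black and brown seed coats were the groups that the study compared. The rule is not independent of this contrast, since 2 of the 3 lower plants were black. By limma (two-sided, Benjamini-Hochberg adjustment over all 37593), 0 of the 8 were called at an adjusted p under 0.05, beside 16 (0.0426%) of all soybean probe sets lower and 25 (0.0665%) higher in black. At an unadjusted p under 0.05, 3 of the 8 were lower in black beside 5.25% of all, and 0 were higher beside 3.08%. A statistic of the SAM form, with the median standard error (0.126) added to each standard error, was also computed. Its p came from a t distribution and not from permutations. With the same adjustment it called 0 of the 8 and 0 of all soybean probe sets. The study ran SAM itself with limits on fold change and p and did report changed probe sets, so this is not a repeat of its calls.

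Black minus brown was between -0.97 and -0.47 for the 8, with a median of -0.84 beside -0.02 over all soybean probe sets. The mean of the black plants was the lower one in 8 of 8, beside 54.6% of all, a direction that the choice of members pushes. PUR3 was at 4.31 ± 0.76 (SD, n = 3) in black and 5.18 ± 0.31 (SD, n = 3) in brown seed coats. Its difference of -0.86 had a standard error of 0.36, a 95% interval of -1.72 to -0.01 and, by limma, an adjusted p of 0.60. LOC100776662 was at 9.10 ± 0.81 (SD, n = 3) and 10.02 ± 0.14 (SD, n = 3), a difference of -0.92 with an adjusted p of 0.58 by limma. The smallest adjusted p of limma among the 8, 0.57, was that of the second probe set without a symbol (difference -0.97). For LOC547562, with the smallest difference, the interval was -1.45 to 0.52 and the adjusted p of limma 0.79.

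The spread within a genotype was 0.63 to 1.09 (SD) in the black and 0.14 to 0.71 in the brown plants over the 8. In none of the 8 did all black plants lie below all brown plants, which the rule itself prevents, beside 8.30% of all soybean probe sets. Without black plant 3 the median difference was -1.32, and the smallest adjusted p of limma was 0.059. The black plants then left are both lower plants of the rule, so these values follow from the choice of members and test nothing. With the level of the maturation transcripts as a covariate the median was -0.31. That level parts the same plants as the rule, so this smaller median is not a test either.

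**Figure D4:**
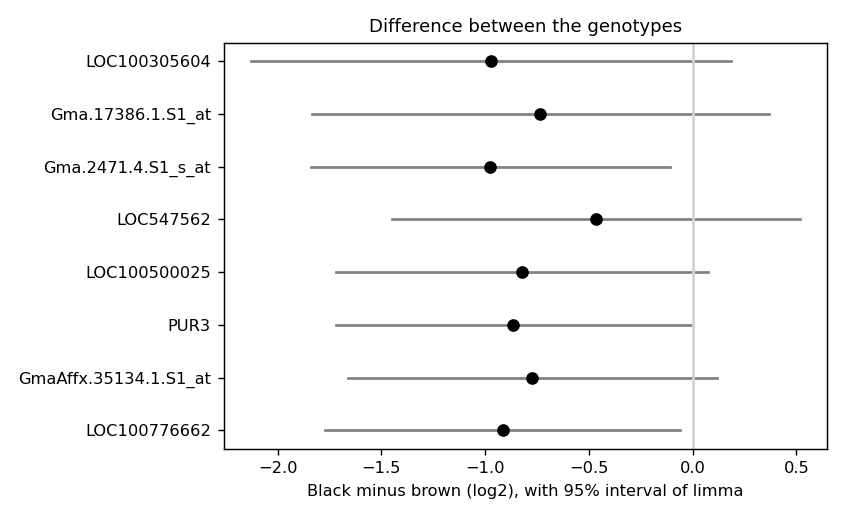
Black minus brown (horizontal axis, log2) is shown for each of the 8 probe sets (vertical axis, by gene symbol or, where there is none, by probe set name) as a point, with the 95% interval from limma as a line. The points lie between -0.97 and -0.47, and 5 of the 8 intervals hold 0.

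Signs of RNA quality were read from 7 pairs of control probe sets, as the 3' minus the 5' signal (the middle one for GAPDH), chosen after the data were seen. The ranges of the lower and upper plants overlapped for 2 actin controls, GAPDH, a glutathione transferase and a cytochrome P450. They did not overlap for ubiquitin, at 4.79 to 4.90 in the lower and 5.13 to 5.50 in the upper plants, or for sucrose-binding protein, at 7.56 to 8.71 in the lower and 5.30 to 6.09 in the upper plants. These 2 ran in opposite directions, and the 5' signal of neither was above background on any array. Of the controls that overlapped, the 5' signal of the cytochrome P450 was also not above background on any array, and that of 1 actin control was above it on only 1. The added control RNAs (21 probe sets) averaged 9.32, 9.63 and 9.24 for black plants 1, 2 and 3, and 9.47, 9.74 and 9.22 for brown plants 1, 2 and 3, which overlapped between lower and upper plants. The part of these measures in the 8 differences was not tested.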

How the data were processed

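The deposited values are log2 signals of 6 Soybean GeneChips, which the authors adjusted for background and normalized across arrays by RMA in FlexArray (version not given in the sources used here). Such normalization removes a shift shared by most transcripts of a plant. The authors also deposited tables of changed probe sets with their own group means, fold changes, SAM scores and p-values, which were not used. Array medians over soybean probe sets were 5.75 to 5.91, and arrays correlated at 0.983 to 0.996.

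The rule was applied to the 37593 probe sets whose names start with Gma or GmaAffx. The members and lists were chosen with earlier results of these data known. Symbols came from the array's annotation (8677 soybean probe sets with 1 symbol, 370 with several, 28546 with none), and positions from the RefSeq table of Glycine max v4.0. The gene groups had been planned by words of gene descriptions. No descriptions were at hand, so symbol patterns were written after the members were seen and revised once, which changed no count of members; surface lipids matched no symbol. The naming rule takes the 20 largest differences with a symbol, the 5 largest of all, members called between genotypes and 3 probe sets on each side of the limit, which covers all 8. Its clause on the authors' tables was not applied. Sequences were not used here.

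Genotypes were compared with lmFit and eBayes of limma (version 3.58.1, under R 4.3.3) on all soybean probe sets, with code tested on simulated data. Alternatives were other limits, scalings, filters and fits, and each plant left out in turn.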

Additional observations from a re-analysis of the deposited data

How the results depend on the processing

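The rule was met by 22 probe sets at a difference of at least 0.8 and by 0 at 1.5 and at 2.0. It was met by 7 with median centring, 6 with cyclic loess, and 6 once the _s_at, _x_at and _a_at types were left out. Leaving out each plant in turn gave 6 to 55 probe sets: 17 without black plant 1, 40 without black plant 3 and 55 without brown plant 2. This loosens the condition on the order but also changes the means, so the limit can become harder to meet. Without black plant 1 or 2, brown plant 2 weighs more in the lower mean, and it was nearer to the upper plants in 7 of the 8. Of the 8, 3 remained without black plant 1 and 3 without black plant 2. The share with brown plant 3 highest (62.5%) was then 17.6% (without black plant 1) to 75% (without brown plant 1). The share with black plant 1 lowest (62.5%) was 45.5% to 100% (without black plant 2). Leaving out a lower or an upper plant leaves fewer plants that can be lowest or highest, so the 75% and 100% are pushed upward by the omission.

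None of the 8 was called under any alternative fit, and all 118 single differences stayed below 0, with adjusted p of 0.059 to 1.00. Most of the lower plants were black, so the choice of members pushes this direction in every fit and the constant sign tests nothing. The median difference was -1.32 to -0.56 with single plants left out. The 41 calls over all soybean probe sets became 0 with the statistic of the SAM form, 22 with the replicate block and 26 with the maturation covariate. They became 13 to 36 with single plants left out (21 without black plant 1, 27 without black plant 3, 13 without brown plant 1, 22 without brown plant 2 and 15 without brown plant 3). The causes were not tested. Same-numbered plants deviated together with correlations of 0.09, 0.29 and 0.50, which do not settle whether the numbers pair them. The labels state no pairing, so the main fit used none. With the replicate block the median difference of the 8 was -0.84. The 6 arrays, and signals at background in 3 of the 8, limit the precision.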
